A study of Mus musculus with 39 samples.

Results

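Rab GTPases are small proteins that label the membranes of a cell and direct vesicles between them. Each Rab is lipid-modified, cycles between a GTP-bound form on a membrane and a GDP-bound form in the cytosol, and recruits effectors such as motors, tethers and coat proteins when it is on. Exchange factors load GTP, GTPase-activating proteins end the signal, and GDI returns the protein to the cytosol. In dorsal root ganglion (DRG) neurons, whose axons run from a peripheral target to the spinal cord, Rab5 and Rab7 are known for carrying internalized neurotrophin receptors toward the cell body, Rab11 for returning receptors to the surface, and Rab3 and Rab27 for docking secretory and synaptic vesicles before release.

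The 59 Rab genes examined here were all genes whose probe sets carry a single annotated symbol made of Rab, a number and at most a letter and a digit, out of 18193 genes named in this way on Affymetrix Mouse Genome 430 2.0 arrays. They are covered by 132 probe sets, with 1 probe set in 21 genes and up to 7 in others. A gene is represented below by its probe set with the highest mean log2 value over the 39 arrays, and other probe sets are given for the members the results turn on, otherwise by count. By textbook role, 8 members act in regulated exocytosis (Rab3a, Rab3b, Rab3c, Rab3d, Rab26, Rab27a, Rab27b and Rab37), 8 at early endosomes, 8 in recycling, 8 at late endosomes, lysosomes and autophagosomes, 16 at the ER and Golgi, 6 in transport to the surface, polarity and cilia, and 5 were put in no list. Several best probe sets carry a suffix that marks probes shared with other transcripts, among them those of Rab3a, Rab38, Rab4a and Rab22a, so that their values may include related sequences.

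Sorted populations came from lumbar DRG of newborn (p0) mice on a mixed 129 and C57Bl6 background. All carried TrkCGFP, a BAC transgene with green fluorescent protein under TrkC regulatory sequence, and flow cytometry separated TrkC GFPon cells, mostly proprioceptors, from TrkC GFPoff cells. The 4 genotypes were sorted from DRG pooled over lumbar levels, with 2 arrays per genotype and population and on average 350 cells per array. They were NT3-/-Bax-/- mice, which lack the muscle-derived neurotrophin NT3 and the pro-apoptotic gene Bax, Bax-/- mice, in which sensory neurons survive without neurotrophin, mlcNT3 mice, in which a myosin light chain promoter drives surplus NT3 in skeletal muscle and which have more proprioceptors, and wild-type mice carrying TrkCGFP alone. A further 11 arrays came from wild-type p0 L5 or L1 DRG sorted separately, with on average 100 cells per array, 3 arrays each for L5 TrkC GFPon, L5 TrkC GFPoff and L1 TrkC GFPoff and 2 for L1 TrkC GFPon. The other 12 arrays came from whole L5 or L1 DRG of adult male C57Bl6 mice kept with a running wheel for 5 weeks from an age of 5 weeks, or of littermates without one, with 3 arrays per group. The NT3 and Bax transcripts were not analysed here. Nothing in the labels says that the arrays of a group came from separate animals, so p-values measure the spread between arrays, and in cell pools and whole ganglia fewer cells of a type and less RNA per cell cannot be told apart.

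Values are RMA intensities on a linear scale, differences are on the log2 scale with limma's standard error, and a gene was called when its adjusted p was under 0.05. With 2 or 3 arrays per group, arrays can fail to overlap without a true difference, and those of called genes mostly do. Where arrays are said not to overlap, this describes the values and is no separate support. The share of all genes without overlap was not computed. The arrays had medians between 6.018 and 6.18 on the log2 scale. Group means of 4 members, Rab17, Rab19, Rab32 and Rab44, lay below 6 in every group of all 3 sets of arrays. In wild-type TrkC GFPon cells Rab20 ranked at percentile 10.78 of all probe sets, Rab42 at 40.22, Rab27a at 45.07, Rab13 at 47.29, Rab37 at 51.66 and Rab29 at 52.55. Differences of all these members thus involve low values. In the wild-type sort, the summed intensity of 5 proprioceptor markers was 15647 to 16892 in TrkC GFPon cells and 227 to 258 in TrkC GFPoff cells, and all 5 were called higher. The 5 nociceptor markers summed to 5693 to 6689 in TrkC GFPon cells and 27938 to 29247 in TrkC GFPoff cells, and 8 markers of Schwann and satellite glia to 6698 to 7921 and 16116 to 16400. The 2 arrays of NT3-/-Bax-/- TrkC GFPoff cells stood apart. Their 5 fibroblast markers summed to 26868 to 40004, against 1549 to 2849 in Bax-/- TrkC GFPoff cells, their 3 markers of dividing cells to 5806 to 7904, against 466 to 728, their 5 endothelial markers to 1827 to 1947, against 247 to 370, and their 8 neuron markers to 26839 to 32416, against 43080 to 46783. Results that rest on these arrays are given after the others.

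Of the 59 Rab genes, 4 were called both between the wild-type populations and on loss of NT3 in TrkC GFPon cells, namely Rab3c, Rab27a, Rab31 and Rab37 (6.78% of members, and 5.82% of all genes were called in both). These comparisons share no arrays but lie in 1 fit. The 250 bases upstream of the annotated start of 3 of them are printed here from RefSeq (GRCm38.p6), because these members moved in both comparisons. Rab37 has no entry. A window was found for 48 of the 59 members (60 windows). Capitals mark a RUNX motif, TGTGGT on either strand, in Rab27a and Rab31, since Runx3 is a transcription factor of proprioceptors, and a GC box, GGGCGG on either strand, in Rab3c. The windows of Rab27a and Rab31 hold a GC box too, left in lower case. The motif to mark was set for each gene, and of several windows of a gene the first that held it was printed. The windows, 5′ to 3′ on the gene's strand, are chr9:73044560-73044809 (plus strand) for Rab27a, chr17:65772753-65773002 (minus strand) for Rab31 and chr13:110280207-110280456 (minus strand) for Rab3c.
Rab27a: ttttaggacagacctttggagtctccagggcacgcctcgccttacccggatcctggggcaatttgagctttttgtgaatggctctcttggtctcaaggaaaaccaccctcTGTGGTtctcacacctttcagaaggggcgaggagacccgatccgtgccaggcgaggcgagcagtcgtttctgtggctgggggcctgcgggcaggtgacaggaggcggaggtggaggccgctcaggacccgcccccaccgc
Rab31: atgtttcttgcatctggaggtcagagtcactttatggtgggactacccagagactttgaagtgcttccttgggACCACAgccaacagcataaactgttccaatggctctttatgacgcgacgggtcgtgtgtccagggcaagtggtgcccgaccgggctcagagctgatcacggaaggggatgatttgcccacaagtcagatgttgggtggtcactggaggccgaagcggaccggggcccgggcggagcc
Rab3c: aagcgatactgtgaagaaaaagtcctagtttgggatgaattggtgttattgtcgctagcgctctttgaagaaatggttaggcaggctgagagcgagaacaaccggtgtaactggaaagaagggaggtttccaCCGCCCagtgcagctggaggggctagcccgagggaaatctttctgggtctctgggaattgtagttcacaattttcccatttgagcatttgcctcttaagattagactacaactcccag
The RUNX motif occurred in 15% of member windows (9 genes) and in 14% of all 32851 windows of this length. The GC box occurred in 66.7% of member windows (36 genes) and in 32.7% of all windows. Other motifs searched on both strands were the cyclic AMP response element TGACGTCA, found in 3.33% of member windows and 1.55% of all windows, the ETS motif CCGGAAG, in 5% and 6.91%, and the CLEAR element of lysosomal genes, in 3.33% (Rab21 and Rab5a) and 0.24%. Matches of different motifs overlapped in 0 member windows. These are matches of letters and were not tested.

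The first question was which Rab genes distinguish proprioceptors from other DRG cells. Wild-type TrkC GFPon cells carried more of Rab3c, a synaptic vesicle Rab, Rab37, a Rab of secretory granules, Rab31, which acts between the trans-Golgi and endosomes, and Rab30, a Golgi Rab. They carried less of Rab27a, which docks secretory granules through its effectors, Rab33a, which is found on vesicles delivered to growing axons, and Rab13, which takes cargo to the cell surface. These 4 higher members made up 6.78% of the 59, against 6.83% of all genes called higher, and the 3 lower members 5.08%, against 5.14% of all genes. The median difference of the members was -0.06 and that of all genes -0.06, and 13 members had an unadjusted p under 0.05.

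Rab3c had 9158 and 7710 in TrkC GFPon cells, against 3869 and 3735 in TrkC GFPoff cells, a log2 difference of 1.14 (SE 0.31, limma adjusted p = 0.03899, n = 2 arrays each). The other 2 Rab3c probe sets that passed the threshold gave 1.47 and 1.75. The 2 populations did not overlap for Rab3c by any of these probe sets. Rab37 had 75.2 and 76.0 in TrkC GFPon cells and 28.1 and 26.4 in TrkC GFPoff cells (1.47, SE 0.33, limma adjusted p = 0.01487), while its second probe set gave 0.33 and was not called. Rab31 had 3678 and 3527, against 2015 and 2059 (0.82, SE 0.15, limma adjusted p = 0.00391). For both genes the 2 arrays of a population lay close together and did not overlap with the other population, but with the mean of its 2 probe sets Rab31 gave 0.47 and was not called (limma adjusted p = 0.1167). Rab30 had 2558 and 2222 in TrkC GFPon cells and 1471 and 1173 in TrkC GFPoff cells (0.86, SE 0.22, limma adjusted p = 0.02882).

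Rab27a was the clearest member on the other side, with 57.4 and 50.5 in TrkC GFPon cells, against 189 and 167 in TrkC GFPoff cells (-1.72, SE 0.18, limma adjusted p = 7.145e-05), a level 3.3-fold lower. This difference rests on 1 probe set, which in TrkC GFPon cells was itself low, at percentile 45.07 of all probe sets. The other 3 Rab27a probe sets, which are dim, gave -0.12 to 0.00 and were not called, and the mean of the 4 gave -0.46 (limma adjusted p = 0.03976). Rab33a had 1177 and 1049 in TrkC GFPon cells and 1849 and 1930 in TrkC GFPoff cells (-0.77, SE 0.19, limma adjusted p = 0.02566). Rab13 had 64.4 and 55.3, against 99.5 and 97.8 (-0.72, SE 0.20, limma adjusted p = 0.04374). The arrays of the 2 populations overlapped for none of these genes. Rab27b, the close relative of Rab27a, had 1006 and 935 in TrkC GFPon cells and 2331 and 2242 in TrkC GFPoff cells, with a difference of -1.24 that was not called in the shared fit (SE 0.93, limma adjusted p = 0.509), although its arrays did not overlap. This SE is drawn from all 16 arrays of the fit. Among them are the 2 NT3-/-Bax-/- TrkC GFPoff arrays, whose Rab27b values, given below, lay far apart. A dimmer Rab27b probe set was called lower (-0.65); over single probe sets, 9.09% of the 132 Rab probe sets were called and 8.95% of all.

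Of the Rab3 members, Rab3a, the main synaptic vesicle Rab, had 8460 and 8424 in TrkC GFPon cells and 7286 and 6654 in TrkC GFPoff cells (0.28, limma adjusted p = 0.3816), while its second probe set was called higher (0.95). Rab3d, known from secretory granules, had 2151 and 2146, against 2406 and 2672 (-0.24), with another probe set called lower (-0.78). Rab3b had 225 and 241, against 240 and 215 (0.03). So only Rab3c of the 4 Rab3 genes passed by its best probe set here. The 52 members that were not called had differences between -1.24 and 0.37. Among early endosome members 1 of 8 was called, among ER and Golgi members 2 of 16, among surface, polarity and cilia members 1 of 6, and none of the 8 recycling, 8 late endosome and 5 unlisted members.

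With any one of the 4 wild-type arrays left out, only Rab27a and Rab31 stayed called of these 7 (2 calls in each case), the lone array being assumed to vary like the other groups. In limma the adjusted p was 0.12 to 0.2293 for Rab3c, 0.08145 to 0.1022 for Rab37, 0.06348 to 0.2314 for Rab30, 0.08712 to 0.1845 for Rab33a and 0.1098 to 0.2717 for Rab13. Rab3c and Rab13 also lost their calls without some Bax-/- or mlcNT3 arrays (limma adjusted p of up to 0.05741 and 0.0644). With a block for replicate number in the fit, the calls of Rab13, Rab30 and Rab33a were also lost. Markers of nociceptors and glia were lower in TrkC GFPon cells, as given above. Fibroblast markers summed to 509 to 660 in TrkC GFPon cells and 2353 to 2579 in TrkC GFPoff cells (1 of 5 lower), and 4 cutaneous mechanoreceptor markers to 4573 to 5418 and 8278 to 9035 (1 higher, 1 lower). The part of these in the Rab differences was not tested.

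The separate L5 and L1 sorts asked the same question on other arrays. In L5, 5 Rab genes were called higher and 10 lower in TrkC GFPon cells (13.0% of all genes were called in each direction, 26.0% in either). In L1, 6 were higher and 11 lower (11.9% and 11.8% of all genes, 23.7% in either). At both levels 9 members were called, in the same direction at L5 and L1. They are 15.3% of the 59, against 18.5% of all genes called at both levels in the same direction. Rab3a, Rab3c, Rab30 and Rab31 were higher, and Rab21, Rab27a, Rab27b, Rab33a and Rab33b were lower.

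Rab3c had 8597, 9587 and 9321 in L5 TrkC GFPon cells, against 4669, 4325 and 4079 in L5 TrkC GFPoff cells (1.07, SE 0.11, limma adjusted p = 5.403e-05). In L1 it had 8508 and 8389, against 3711, 4403 and 4142 (1.05, SE 0.13, limma adjusted p = 0.0001641). Every TrkC GFPon array was thus above every TrkC GFPoff array of its level. Rab31 had 2934, 3043 and 3220 in L5 TrkC GFPon cells and 1672, 1744 and 1514 in L5 TrkC GFPoff cells (0.90), and 3591 and 3564, against 1749, 1795 and 1743, in L1 (1.02). Rab30 had 2264, 2159 and 2345, against 1201, 1089 and 1402, in L5 (0.88), and 2681 and 3075, against 1158, 1327 and 1455, in L1 (1.14). Neither gene had overlapping arrays at either level. Rab3a was higher by 0.39 in L5 (8666, 9039 and 8718, against 7092, 6925 and 6231) and by 0.41 in L1 (8856 and 8606, against 6438, 7153 and 6171).

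Rab27a had 71.0, 107 and 83.8 in L5 TrkC GFPon cells, against 300, 280 and 320 in L5 TrkC GFPoff cells (-1.80, SE 0.20, limma adjusted p = 6.98e-05). In L1 it had 101 and 85.8, against 269, 190 and 314 (-1.44, SE 0.22, limma adjusted p = 0.0008784). The other 3 Rab27a probe sets gave -0.02 to 0.02 in L5 and 0.07 to 0.17 in L1, and with the mean of the 4 the call stayed in L5 (-0.46) and was lost in L1 (-0.26, limma adjusted p = 0.2572). Rab27b, not called in the pooled sort, was called at both levels, with non-overlapping arrays. It had 1281, 982 and 1814 in L5 TrkC GFPon cells and 3309, 3086 and 2371 in L5 TrkC GFPoff cells (-1.14, SE 0.23, limma adjusted p = 0.004778). In L1 it had 1361 and 951, against 3399, 2688 and 2700 (-1.36, SE 0.26, limma adjusted p = 0.003517). Rab21, an early endosome Rab that binds integrins, was lower by 0.72 in L5 (limma adjusted p = 0.0008725) and by 0.68 in L1 (limma adjusted p = 0.002852), and lost both calls with the mean of its 2 probe sets (-0.30 and -0.27, limma adjusted p = 0.08916 and 0.1913). Rab33a fell by 0.54 and 0.55 at the 2 levels, and Rab33b, a Golgi and autophagy Rab, fell by 0.42 and 0.48.

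Other members passed at a single level. In L5 these were Rab40b (-1.47), Rab13 (-0.90), Rab12 (-0.64), Rab23 (-0.52), Rab22a (-0.48) and Rab15 (0.35), and of these only Rab12 had overlapping arrays (315, 232 and 168, against 394, 398 and 296). In L1 they were Rab39 (-1.39), Rab3b (-1.12), Rab29 (-1.03), Rab3d (-0.93), Rab42 (-0.62), Rab9b (-0.56), Rab26 (0.61) and Rab5b (0.75). Other probe sets alone were called in 5 genes in L5, among them Rab3d (-1.04 and -1.16), and in 4 genes in L1, among them Rab2a (0.74 and 1.28). Rab3b had 147 and 155 in L1 TrkC GFPon cells and 275, 369 and 352 in L1 TrkC GFPoff cells. The difference between the 2 levels in the effect of TrkC sign was called for 0 of 59 members (0.121% of all genes, limma, 4 members at an unadjusted p under 0.05), with Rab40b at -1.39 (limma adjusted p = 0.3109). Rab37, called in the pooled sort, differed by 0.22 in L5 and 0.24 in L1 and was not called, its 39.1 to 53.9 in L5 TrkC GFPon cells standing beside 37.0 to 47.9 in L5 TrkC GFPoff cells. With any single array left out, 9 of the 15 L5 calls and 9 of the 17 L1 calls stayed, Rab3c, Rab27a, Rab27b, Rab21, Rab30 and Rab31 at both levels, and the others reached adjusted p of up to 0.1509 in L5 (Rab12) and 0.2683 in L1 (Rab29). The L1 count was 11 without either of the 2 L1 TrkC GFPon arrays. All 5 nociceptor markers, 4 of 8 glial and 3 of 5 fibroblast markers were called lower in TrkC GFPon cells at each level, as were 5 of 5 endothelial markers in L5 and 4 of 5 in L1. In L5 the fibroblast sums were 861 to 1357 in TrkC GFPon cells and 4689 to 7683 in TrkC GFPoff cells, the endothelial sums 173 to 207 and 899 to 1172, the macrophage sums 167 to 192 and 565 to 782, and the cutaneous mechanoreceptor sums 4521 to 5523 and 10242 to 10749. In L1 the fibroblast sums were 585 to 808 and 4673 to 4939, the endothelial sums 170 to 175 and 523 to 861, the macrophage sums 167 to 185 and 173 to 1399, and the cutaneous mechanoreceptor sums 5056 to 5344 and 10868 to 11203. Their part in these results was not tested.

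**Figure D1:**
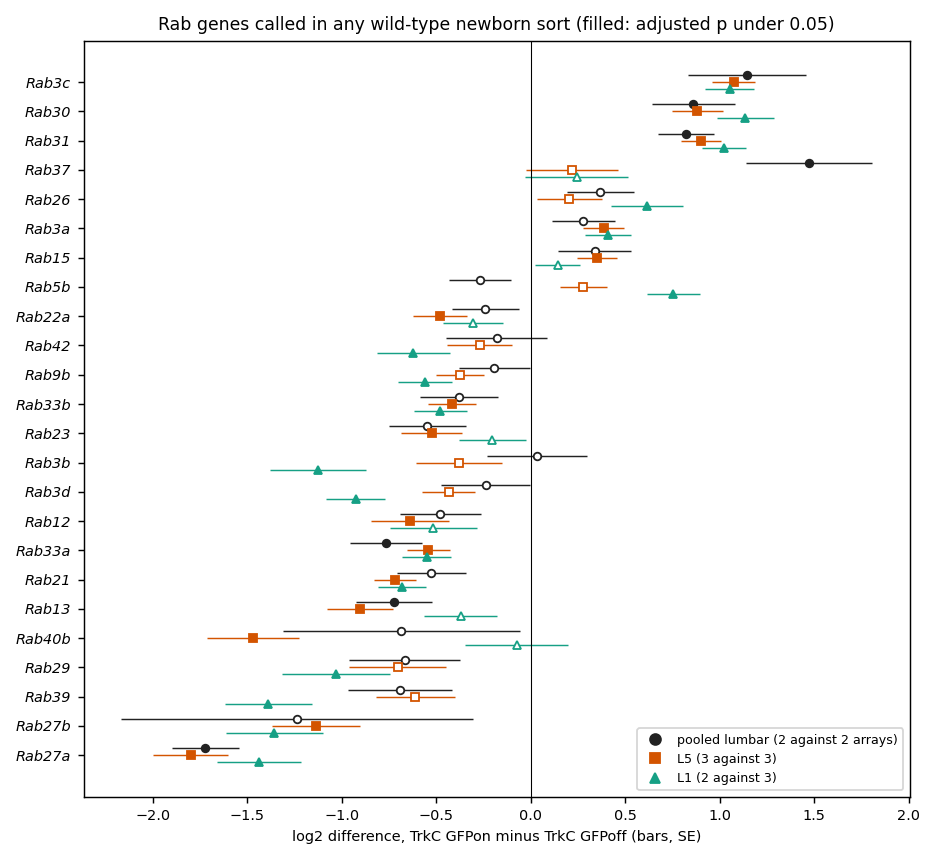
Log2 difference, TrkC GFPon minus TrkC GFPoff, with standard error, for every Rab gene called in at least one of the 3 wild-type p0 sorts (circles, pooled lumbar DRG; squares, L5; triangles, L1; filled symbols have an adjusted p under 0.05). Rab3c, Rab30 and Rab31 lie to the right of 0 and Rab27a and Rab27b to the left in all 3 sorts, while Rab37 is far from 0 in the pooled sort alone.

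The second question was how Rab expression in proprioceptors depends on NT3. Between NT3-/-Bax-/- and Bax-/- TrkC GFPon cells, 2 Rab genes were called higher and 11 lower. The 11 lower members are 18.6% of the 59, against 12.6% of all genes called lower, and the 2 higher members 3.39%, against 8.78%; in either direction it was 22.0% of members and 21.4% of all genes. The share called was thus near that of the array as a whole, and the members differed in size and role. The role groups were set with earlier results of these data known, and differences between the groups were not tested. The regulated exocytosis group held 4 of the 11 lower members, Rab3c, Rab27a, Rab37 and Rab3d, of 8 measured, with a median difference of -1.44, and 0 higher members. The falls of Rab27a and Rab37 rest on single probe sets, as given below. The recycling group held 3 of 8 (Rab4b, Rab11a and Rab15, median -0.35). The medians were -0.04 over all 59 members and -0.02 over all genes, and 17 members had an unadjusted p under 0.05.

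Rab3c had 574 and 500 in NT3-/-Bax-/- TrkC GFPon cells, against 7787 and 6409 in Bax-/- TrkC GFPon cells, a level 13.2-fold lower (-3.72, SE 0.31, limma adjusted p = 1.59e-05, n = 2 arrays each). The 2 wild-type arrays had 9158 and 7710 and those of mlcNT3 9299 and 6467. Both NT3-/-Bax-/- arrays also lay below the 3735 to 3979 of wild-type and Bax-/- TrkC GFPoff cells. The other called Rab3c probe sets gave -3.26 and -2.58, and the mean of all 5 gave -2.31 (limma adjusted p = 7.779e-05). Rab3d had 623 and 665 in NT3-/-Bax-/- TrkC GFPon cells and 2032 and 1277 in Bax-/- TrkC GFPon cells (-1.32, SE 0.24, limma adjusted p = 0.002269), with -1.49 and -1.77 by its other called probe sets.

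Rab27a had 20.2 and 25.8 in NT3-/-Bax-/- TrkC GFPon cells, against 78.3 and 72.2 in Bax-/- TrkC GFPon cells (-1.72, SE 0.18, limma adjusted p = 6.389e-05). Both mutant arrays were also below the wild-type TrkC GFPon arrays (57.4 and 50.5). The other 3 Rab27a probe sets gave -0.39 to 0.09 and were not called, and the mean of the 4 gave -0.52 (limma adjusted p = 0.0147). Rab37 had 21.5 and 14.9, against 69.2 and 39.9 (-1.55, SE 0.33, limma adjusted p = 0.006631), while its second probe set gave 0.07 and the mean of both -0.74 (limma adjusted p = 0.0157). Rab27b had 127 and 399, against 1155 and 1194, a difference of -2.38 that was not called (SE 0.93, limma adjusted p = 0.1015), although its arrays did not overlap. Its SE includes the spread of the NT3-/-Bax-/- TrkC GFPoff arrays here too. Rab3a had 6222 and 5994 in NT3-/-Bax-/- TrkC GFPon cells and 8083 and 7646 in Bax-/- TrkC GFPon cells (-0.36, limma adjusted p = 0.162). Rab3b had 233 and 172, against 181 and 268 (-0.14), with overlapping arrays. By their best probe sets, the 4 Rab3 genes thus ran from a 13.2-fold lower level for Rab3c to no call for Rab3a and Rab3b. The best Rab3a probe set carries the suffix for shared probes. Its second probe set was called lower in the same mutant cells against wild-type TrkC GFPon cells (-1.08).

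**Figure D2:**
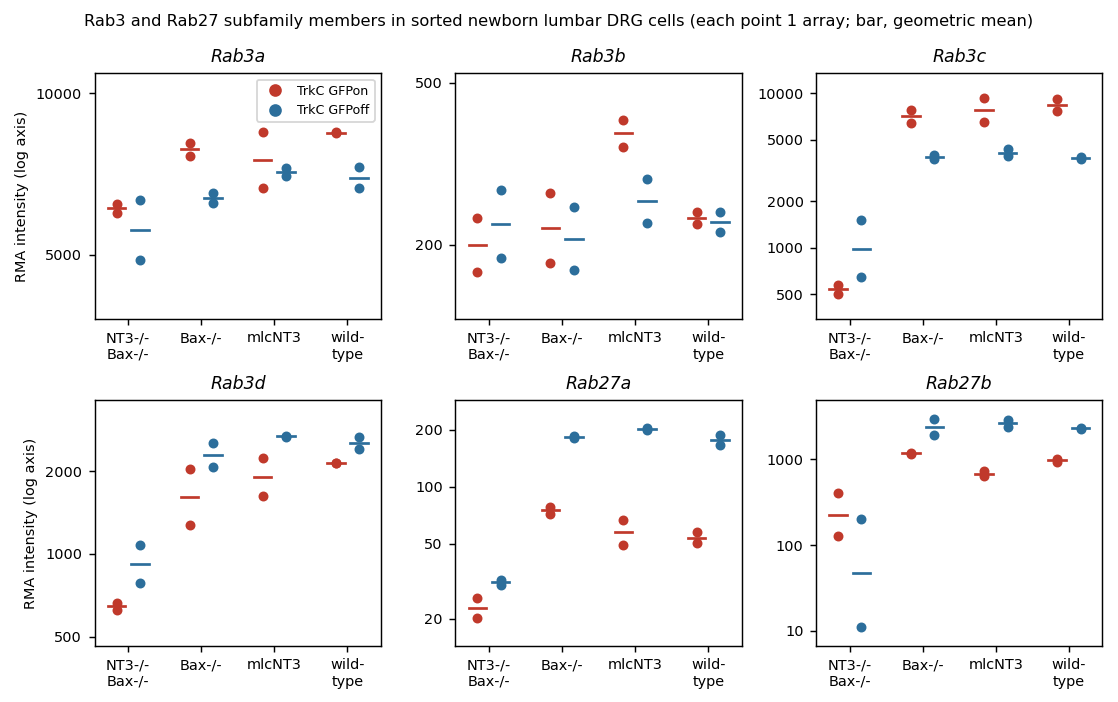
RMA intensity (log axis) of the Rab3 and Rab27 genes in p0 cells of 4 genotypes, each point 1 array and each bar the geometric mean of 2 arrays (red, TrkC GFPon; blue, TrkC GFPoff). Both NT3-/-Bax-/- TrkC GFPon arrays of Rab3c lie at 574 and 500, below every other Rab3c point, and Rab27a is lower in TrkC GFPon than in TrkC GFPoff cells in Bax-/-, mlcNT3 and wild-type mice.

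The recycling members fell by smaller amounts. Rab4b, which returns receptors from early endosomes, had 473 and 507 in NT3-/-Bax-/- TrkC GFPon cells, against 1226 and 821 in Bax-/- TrkC GFPon cells (-1.03, SE 0.20, limma adjusted p = 0.004276). Rab11a, the Rab of the recycling endosome, had 2639 and 2307, against 5112 and 4430 (-0.95, SE 0.20, limma adjusted p = 0.005853). Rab15, an endosomal Rab of neurons, had 2584 and 2207, against 4510 and 3700 (-0.77, SE 0.19, limma adjusted p = 0.01575). None of these overlapped between genotypes.

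Single members of other groups moved as well. Rab31 had 1814 and 2001 in NT3-/-Bax-/- TrkC GFPon cells and 3370 and 3045 in Bax-/- TrkC GFPon cells (-0.75, SE 0.15, limma adjusted p = 0.004457), and wild-type TrkC GFPoff cells had 2015 and 2059. Rab38, a Rab of lysosome-related organelles, had 104 and 95.1, against 181 and 235 (-1.06, limma adjusted p = 0.01033). Rab29, which binds the kinase Lrrk2, had 46.2 and 30.6, against 95.8 and 90.3 (-1.31, limma adjusted p = 0.008963), and Rab39 had 67.6 and 99.5, against 150 and 247 (-1.23, limma adjusted p = 0.008563). Both were lower in each mutant array than in each Bax-/- array. Higher members were Rab12, a Rab of degradation and autophagy, with 481 and 567 in NT3-/-Bax-/- TrkC GFPon cells, against 248 and 227 in Bax-/- TrkC GFPon cells (1.14, SE 0.21, limma adjusted p = 0.003034), and Rab42, with 125 and 64.5, against 48.3 and 35.5 (1.11, SE 0.27, limma adjusted p = 0.01256). A second Rab12 probe set gave 1.17.

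The 46 members that were not called had differences between -2.38 and 0.43, and the 6 surface, polarity and cilia members were among them. In 6 of these genes a dimmer probe set was called instead, lower in Rab14 (-1.58), Rab8b (-1.20) and Rab21 (-0.77), and higher in Rab43 (1.36), Rab5b (0.67) and Rab2b (0.53 and 0.62). Over single probe sets, 19.7% of those of Rab genes were called and 18.2% of all.

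**Figure D3:**
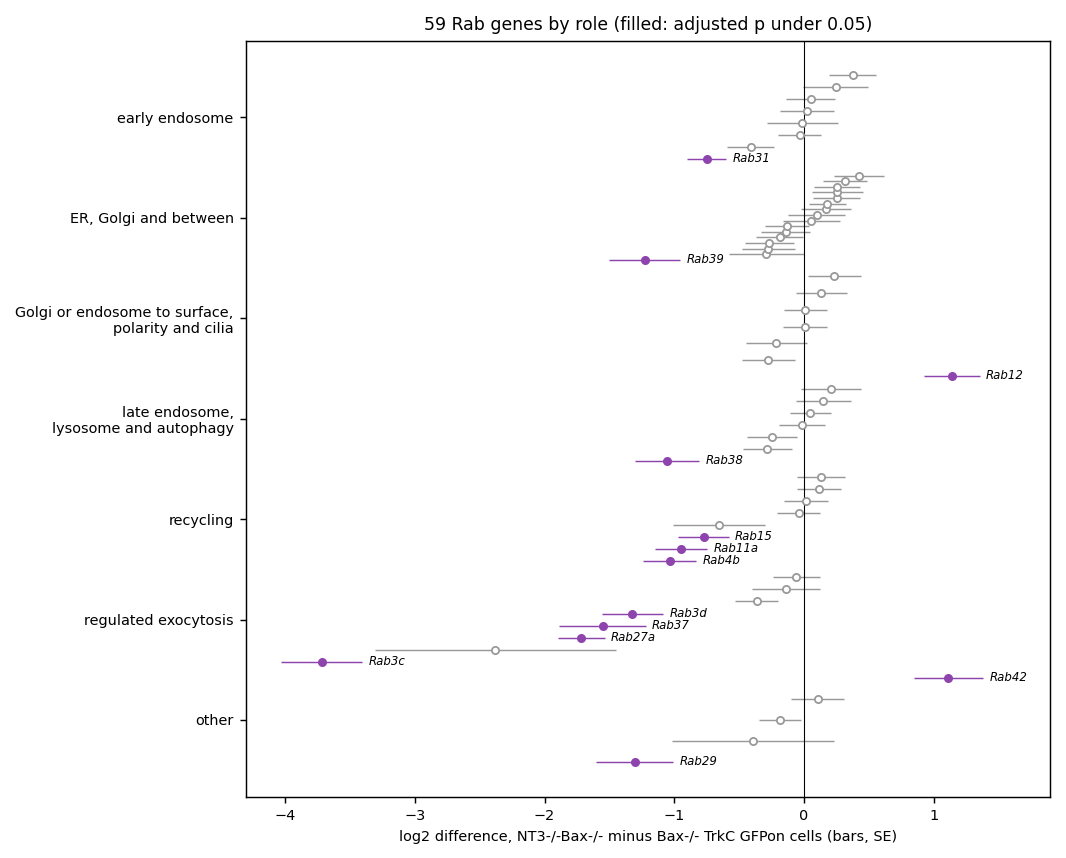
Log2 difference, NT3-/-Bax-/- minus Bax-/- TrkC GFPon cells, with standard error, for the 59 Rab genes grouped by role (filled symbols have an adjusted p under 0.05). The exocytosis group holds 4 filled symbols, at -1.32 to -3.72, the recycling group 3, and Rab12 and Rab42 are the 2 filled symbols to the right of 0.

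Leaving out single arrays kept 7 of the 13 calls in every case, those of Rab3c, Rab3d, Rab27a, Rab4b, Rab11a, Rab31 and Rab12. Without Bax-/- TrkC GFPon replicate 1 the calls of Rab15, Rab29 and Rab37 were lost (limma adjusted p = 0.1108, 0.05034 and 0.06783), and without replicate 2 those of Rab38, Rab39 and Rab42 (0.06217, 0.06313 and 0.07598). Without NT3-/-Bax-/- TrkC GFPon replicate 1, Rab39 and Rab42 were lost (limma adjusted p = 0.08055 and 0.1081), and without replicate 2, Rab15 and Rab29 (0.07878 and 0.06339). With only the 4 compared arrays in the fit 2 of the 13 calls remained, those of Rab3c and Rab27a. The methods' t-test called 0 once a Benjamini-Hochberg adjustment was added. The authors state no such adjustment and compared these genotypes by analysis of variance, which was not repeated here. With the 2 NT3-/-Bax-/- TrkC GFPoff arrays kept out of the fit, all 13 stayed called and the count was 15, a setting added after the data were seen. In NT3-/-Bax-/- TrkC GFPon cells the 5 proprioceptor markers summed to 4748 to 6627, against 16705 to 19100 in Bax-/- TrkC GFPon cells (3 of 5 lower), the 8 neuron markers to 33091 to 40772, against 45506 to 46458 (1 of 8 lower), the 5 nociceptor markers to 2278 to 4204, against 7822 to 8070 (none called), and the 8 glial markers to 4353 to 7080, against 8078 to 11061 (3 of 8 lower). The part of these in the Rab differences was not tested.

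Set against wild-type TrkC GFPon cells, the same NT3-/-Bax-/- arrays gave 3 Rab genes higher and 13 lower (11.2% and 17.2% of all genes, 28.4% in either direction, against 27.1% of members). The 2 comparisons share these mutant arrays, so that their calls are not separate evidence. Differences were -3.97 for Rab3c (SE 0.31, limma adjusted p = 6.341e-06), -2.08 for Rab37, -1.74 for Rab3d, -1.41 for Rab39, -1.24 for Rab27a, -1.16 for Rab38, -1.08 for Rab29, -0.97 for Rab4b, -0.92 for Rab31, -0.90 for Rab11a and -0.85 for Rab15. Called here and not against Bax-/- were Rab4a, a recycling Rab (578 and 785 in NT3-/-Bax-/- cells, against 1451 and 1477 in wild-type cells, -1.12, limma adjusted p = 0.03499), Rab19 (29.4 and 31.8, against 40.8 and 51.9, -0.59, limma adjusted p = 0.03267) and Rab33a (1514 and 1982, against 1177 and 1049, 0.64, limma adjusted p = 0.02708). Group means of Rab19 all lay below a log2 of 6. Rab12 and Rab42 were higher by 1.11 and 1.05. Other probe sets alone were called in 8 genes, lower for example in Rab8b (-2.05) and Rab3a (-1.08) and higher in Rab2a (1.20). The 7 probe sets of Rab14 disagreed, since 2 were called lower (-1.50 and -1.25) and 1 higher (1.51). With single arrays left out, 10 of these 16 calls stayed in every case, and the others reached adjusted p of up to 0.2526 (Rab19) in limma.

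Bax loss alone and surplus NT3 were compared with wild-type TrkC GFPon cells in the same fit. By limma, 0 of 59 Rab genes were called in Bax-/- cells (0.346% of all genes), with 5 at an unadjusted p under 0.05, and 0 in mlcNT3 cells (0.308% of all genes), with 3. For 54 of the 59 members in each comparison, the 95% interval of the difference lay within 1 log2 unit of 0 on both sides. Rab3c differed by -0.25 in Bax-/- cells (95% interval -0.93 to 0.43) and by -0.12 in mlcNT3 cells (-0.79 to 0.56). Rab27a differed by 0.48 in Bax-/- cells (0.09 to 0.87, limma unadjusted) and by 0.09 in mlcNT3 cells (-0.30 to 0.48). Rab3b had 404 and 349 in mlcNT3 TrkC GFPon cells, against 225 and 241 in wild-type TrkC GFPon cells (0.69, 95% interval 0.12 to 1.26), and was not called after adjustment. Rab27b had wide intervals in both, -1.75 to 2.30 in Bax-/- and -2.54 to 1.51 in mlcNT3 cells. Their width comes from the SE of the shared fit, which includes the NT3-/-Bax-/- arrays. Replicate 2 of mlcNT3 TrkC GFPon cells had a lower summed neuron signal than replicate 1 (32585 and 43914).

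In TrkC GFPoff cells, loss of NT3 was compared in the same way, between NT3-/-Bax-/- and Bax-/- mice, on the 2 mutant arrays that stood apart. Of the 59 members, 6 were called higher and 12 lower (10.1% and 15.5% of all genes, 25.6% in either direction, against 30.5% of members). The exocytosis group held 4 lower and 0 higher members of 8. That grouping was made with earlier results of these data known and was not tested. Rab27b had 198 and 11.1 in NT3-/-Bax-/- TrkC GFPoff cells, against 2947 and 1921 in Bax-/- TrkC GFPoff cells (-5.66, SE 0.93, limma adjusted p = 0.001212), with -7.74 without mutant replicate 1 and -3.58 without replicate 2. Its 3 other probe sets were also called lower, and the mean of the 4 gave -3.39. Rab27a had 30.3 and 32.1, against 185 and 182 (-2.55, SE 0.18, limma adjusted p = 1.04e-05), with -0.36 to -0.07 and no call by its other 3 probe sets and -0.81 by the mean of the 4. Both Rab27 genes were thus far below the Bax-/- cells, the mutant arrays agreeing closely for Rab27a and poorly for Rab27b. Rab39 had 69.2 and 95.7, against 530 and 374 (-2.45), Rab3c had 1502 and 644, against 3979 and 3765 (-1.98), and Rab3d had 1077 and 785, against 2533 and 2081 (-1.32). Further lower members were Rab4a (-1.85), Rab15 (-1.35), Rab4b (-1.15), Rab21 (-0.91), Rab33a (-0.75), Rab17 (-0.64) and Rab40c (-0.55). Group means of Rab17 all lay below a log2 of 6.

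The higher members belonged to other groups. Rab20, an endosomal and phagosomal Rab, had 54.5 and 84.7 in NT3-/-Bax-/- TrkC GFPoff cells, against 14.6 and 14.5 in Bax-/- TrkC GFPoff cells (2.22, SE 0.27, limma adjusted p = 0.0002156). Rab13 had 150 and 167, against 69.4 and 73.2 (1.15, SE 0.20, limma adjusted p = 0.001827). Rab29 (0.97), Rab7b (0.88), Rab32 (0.87) and Rab8b (0.66) were also called higher, and for none of these 6 did the arrays overlap, but with the mean of its 2 probe sets Rab8b turned to -0.20 (limma adjusted p = 0.5182). Group means of Rab32 all lay below a log2 of 6. Other probe sets alone were called lower in 6 genes, among them Rab14 and Rab3a (-1.03). With single arrays left out 11 of the 18 calls stayed in every case and the count was 11 without Bax-/- TrkC GFPoff replicate 1, the others reaching adjusted p of up to 0.3081 (Rab29). All 5 fibroblast, all 5 endothelial and all 3 dividing cell markers were higher in these mutant arrays, 5 of 8 glial markers were higher, 3 of 8 neuron markers and 1 of 5 nociceptor markers were lower. The 6 macrophage markers, none of them called, summed to 12600 in mutant replicate 1 and 401 in replicate 2, against 252 to 1227 in Bax-/- TrkC GFPoff cells. The part of this in the Rab differences was not tested.

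The effect of NT3 loss differed between TrkC GFPon and TrkC GFPoff cells for 9 members by an interaction term (15.3% of members, 12.9% of all genes), 2 with a positive term (5.65% of all genes) and 7 with a negative one (7.23%). Rab3c fell more in TrkC GFPon than in TrkC GFPoff cells (-1.74, SE 0.44, limma adjusted p = 0.02676), while the term for Rab3d was -0.0027 (95% interval -0.73 to 0.73). Rab29, Rab31 and Rab38 fell in TrkC GFPon cells, whereas in TrkC GFPoff cells Rab29 was higher and Rab31 and Rab38 were not called. Rab13, Rab20 and Rab7b were called higher in TrkC GFPoff cells and were not called in TrkC GFPon cells, with interaction terms of -1.42, -2.23 and -1.16. Rab33a (1.17) and Rab42 (1.35) went the other way. Rab27b had a term of 3.28 that was not called (SE 1.31, limma adjusted p = 0.1528), while another of its probe sets was called (2.74, limma adjusted p = 0.01046), as were single probe sets of Rab23 and Rab2b. With the mean of its probe sets Rab3c gave -1.01 and was not called (limma adjusted p = 0.09483). The terms of Rab13, Rab20, Rab29 and Rab31 stayed called whichever array was left out, the count was 4 without Bax-/- TrkC GFPoff replicate 1, and the call of Rab3c was lost without either Bax-/- TrkC GFPoff array, Bax-/- TrkC GFPon replicate 1 or NT3-/-Bax-/- TrkC GFPon replicate 2 (limma adjusted p of 0.07014 to 0.07461). The term rests on the 2 arrays of NT3-/-Bax-/- TrkC GFPoff cells with the high fibroblast, endothelial and dividing cell markers given above. Of the 13 members called in TrkC GFPon cells and the 18 called in TrkC GFPoff cells, 7 were shared (11.9% of members, 9.82% of all genes), 6 of them lower in both (Rab3c, Rab3d, Rab27a, Rab39, Rab4b and Rab15) and Rab29 in opposite directions.

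**Figure D4:**
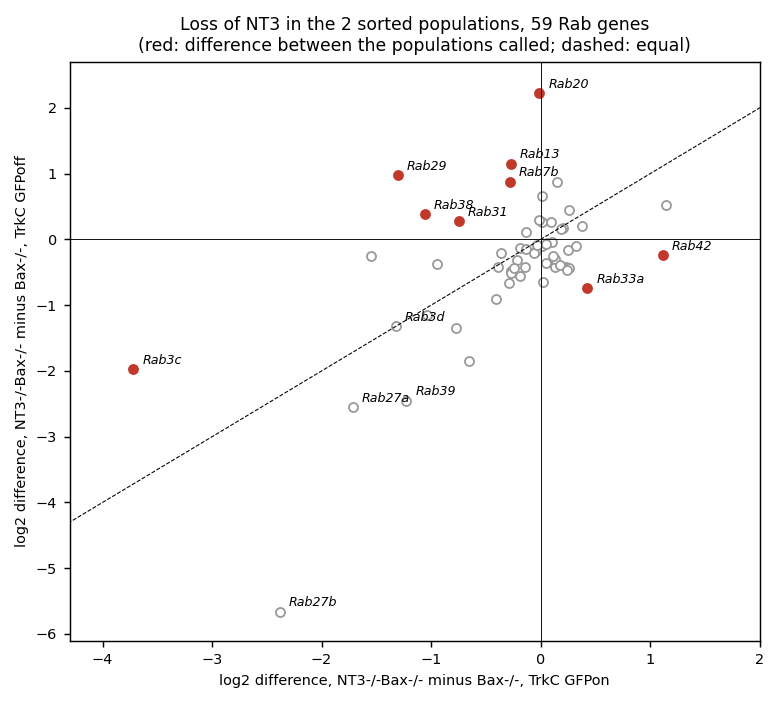
Log2 difference, NT3-/-Bax-/- minus Bax-/-, of the 59 Rab genes in TrkC GFPon cells (horizontal) and TrkC GFPoff cells (vertical); red points have an interaction term with an adjusted p under 0.05, and the dashed line marks equal differences. Rab3c lies above the line at -3.72 and -1.98, Rab27a and Rab27b below it, and Rab20 high at 2.22 on the vertical axis.

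The machinery that switches Rabs on and off was examined as 4 lists, whose members were chosen with earlier results known. Between NT3-/-Bax-/- and Bax-/- TrkC GFPon cells, 0 of 6 genes for prenylation and GDI were called. Of 34 exchange factors 5 were higher and 2 lower (median -0.02), among them Dennd6a (-1.94), Rab3gap2 (-1.13), Dennd2a (1.37) and Dennd1a (0.91). Rab3gap2 is listed here for its action on Rab18, while with its partner it is a GTPase-activating protein for Rab3. Of 35 GTPase-activating proteins 6 were higher and 8 lower (median -0.08), among them Tbc1d8b (-2.01), Tbc1d4 (-1.19), Tbc1d8 (-1.11) and Tbc1d23 (1.28). Of 35 effectors 2 were higher and 4 lower (median -0.21). Of all genes 8.78% were called higher, 12.6% lower and 21.4% in either direction, and their median was -0.02.

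The 3 effectors that fell most are partners of Rab3, Rab27 or Rab29. The list was chosen with earlier results known, and the share of such partners in it was not counted. Lrrk2, a kinase that phosphorylates several Rabs and is recruited by Rab29, had 22.5 and 22.2 in NT3-/-Bax-/- TrkC GFPon cells, against 175 and 259 in Bax-/- TrkC GFPon cells (-3.25, SE 0.27, limma adjusted p = 1.569e-05). Myrip, which links Rab27a to myosin, had 299 and 430, against 1859 and 1505 (-2.22, SE 0.22, limma adjusted p = 4.44e-05). Rph3al, which binds Rab3 and Rab27, had 60.7 and 61.5, against 133 and 191 (-1.39, SE 0.21, limma adjusted p = 0.000761). All 3 were far below the Bax-/- arrays, while Micall1 was higher by 0.70. In the wild-type sort, Myrip had 1622 and 1490 in TrkC GFPon cells, against 84.3 and 105 in TrkC GFPoff cells (4.05), and Lrrk2 was higher by 2.38. Rab11fip5 was called higher too (0.82) and Mical1 lower (-2.28), and the remaining effectors were not called. Of all genes, 6.83% were called higher and 5.14% lower in that sort. Rph3al had 351 and 305 in wild-type TrkC GFPon cells, above its Bax-/- values, and 197 and 205 in wild-type TrkC GFPoff cells. By its best probe set alone, Rab27a lay opposite its partner Myrip between the wild-type populations and on the same side on loss of NT3. The other Rab27a probe sets were called in neither comparison.

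Spinal level was compared next, L5 being a level that supplies the hindlimb. Between L5 and L1 TrkC GFPon cells of p0 wild-type mice 1 Rab gene was called, and it was lower (0.159% of all genes called lower, 0.533% in either direction). Rab40b, which joins a ubiquitin ligase through its SOCS box, had 149, 83.0 and 180 in L5 cells, against 377 and 420 in L1 cells (-1.61, SE 0.27, limma adjusted p = 0.03652). In TrkC GFPoff cells it had 384, 346 and 355 in L5 and 396, 362 and 512 in L1. The low values were thus those of the 3 L5 TrkC GFPon arrays. With the mean of its probe sets it gave -0.82 and was not called (limma adjusted p = 0.1029). The call was lost when any of 8 of the 11 arrays was left out (limma adjusted p of up to 0.1617, without an L1 TrkC GFPon array). Rab3c differed by 0.12 between the levels (95% interval -0.16 to 0.40) and Rab27a by -0.11 (-0.60 to 0.37).

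In adult whole DRG, 2 Rab genes were lower in L5 than in L1 of mice with a wheel (3.39% of members, 3.18% of all genes called lower, 7.09% in either direction), and 3 of mice without one (5.08% of members, 3.63% lower, 6.19% in either direction). No member was called higher by its best probe set. Other probe sets alone were called in 5 genes with a wheel, higher in Rab31 (0.41), Rab4a (0.40) and Rab38 (0.34) and lower in Rab2a (-0.76) and Rab8a (-0.39), and in 3 without one, higher in Rab11b (0.36) and lower in Rab6b (-0.62) and Rab8a (-0.32). Rab3b had 125, 127 and 115 in L5, against 207, 192 and 192 in L1, with a wheel (-0.68, SE 0.09, limma adjusted p = 0.0003452). Without a wheel it had 123, 138 and 129 in L5, against 203, 179 and 168 in L1 (-0.49, SE 0.09, limma adjusted p = 0.005548). Rab3b was lower in every L5 array than in every L1 array, and it stayed called in both whichever array was left out.

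Rab27b had 1373, 1460 and 1320 in L5, against 1774, 2530 and 2202 in L1, with a wheel (-0.63, SE 0.13, limma adjusted p = 0.01154). Without a wheel it had 1504, 1344 and 1142 in L5, against 1678, 2074 and 2139 in L1 (-0.56, SE 0.13, limma adjusted p = 0.0276). The arrays of L5 and L1 did not overlap. Rab27a had 338, 357 and 358 in L5, against 339, 298 and 305 in L1, with a wheel (0.16, SE 0.11, limma adjusted p = 0.4738), and its arrays overlapped. Without a wheel it had 312, 237 and 257 in L5, against 339, 421 and 405 in L1 (-0.53, SE 0.11, limma adjusted p = 0.01215). The difference between these effects was 0.70 for Rab27a and was not called (limma adjusted p = 0.2014, 0% of all genes called). With the mean of all probe sets of a gene Rab27b was not called with a wheel (-0.37, limma adjusted p = 0.05448), nor Rab27a without one (-0.23, limma adjusted p = 0.06262). With a wheel, Rab27b was lost without L1 replicate 2 (limma adjusted p = 0.06421, 1 call left), and the count was 6 without L1 replicate 1. Without a wheel, the calls of Rab27a and Rab27b were lost when any of 4 arrays was left out (L5 replicates 2 and 3 and L1 replicates 2 and 3, limma adjusted p of up to 0.06978 and 0.1279), and the count was 1 without L5 replicate 3, L1 replicate 2 or L1 replicate 3.

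In adults with a wheel the 5 proprioceptor markers summed to 2939 to 3292 in L5 and 1688 to 1720 in L1 (5 of 5 higher), and the 5 nociceptor markers to 13774 to 15769 in L5 and 16711 to 21120 in L1 (3 of 5 lower). Without a wheel the proprioceptor sums were 2502 to 3190 in L5 and 1511 to 1673 in L1 (4 of 5 higher), and the nociceptor sums 14625 to 15886 in L5 and 15224 to 18363 in L1 (1 of 5 lower). Their part in the Rab differences was not tested.

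**Figure D5:**
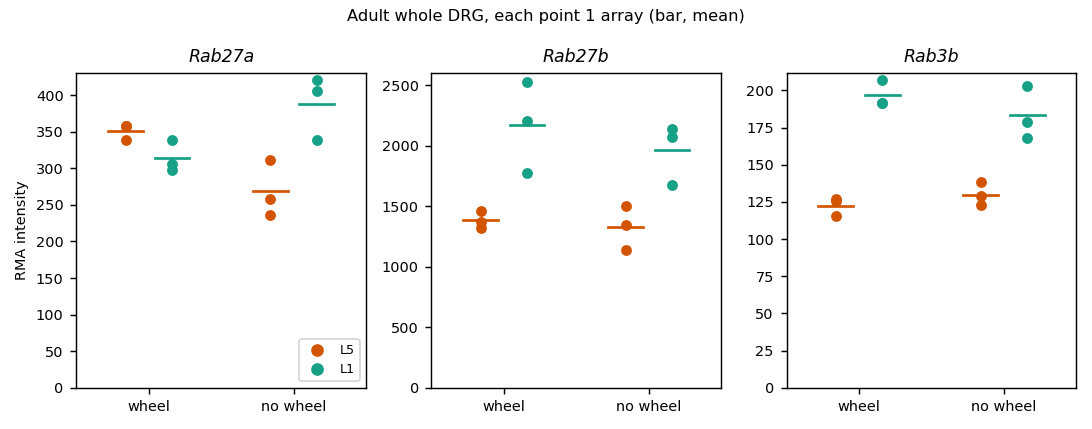
RMA intensity of Rab27a, Rab27b and Rab3b in whole adult DRG of L5 (orange) and L1 (green), with and without a running wheel; each point is 1 array and each bar the mean of 3. Rab3b lies between 115 and 138 in L5 and between 168 and 207 in L1, and the L5 and L1 points of Rab27a overlap with a wheel.

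Running itself was the last comparison. By limma, 0 of 59 Rab genes were called with a wheel against without one in L5 (0.500% of all genes, 13 members at an unadjusted p under 0.05) and 0 in L1 (0.143% of all genes, 9 members at an unadjusted p under 0.05). A dim Rab6b probe set was called lower in L1 (-0.83, limma adjusted p = 0.002404). By their best probe sets, all 59 members had a 95% interval within 1 log2 unit of 0 at both levels. In L5 Rab27a differed by 0.40 (limma adjusted p = 0.09773, 95% interval 0.16 to 0.63), with 338, 357 and 358 with a wheel and 312, 237 and 257 without one. In L1 Rab5c, an early endosome Rab, differed by -0.62 (limma adjusted p = 0.07211), with 108, 120 and 131 with a wheel and 195, 192 and 165 without one. The arrays did not overlap for either gene. Without L1 wheel replicate 1 the L1 count was 4, and without L5 no-wheel replicate 1 the L5 count was 2.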

How the data were processed

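RNA of sorted p0 DRG cells or whole adult DRG was hybridised to 39 arrays. The deposited intensity values are RMA values that the authors computed, on a linear scale, for 45101 probe sets; the submitters' processing notes name R 2.9, affy, RMA and MAS5, and joint or separate normalization of the arrays is not given in the sources used here. The 64 control probe sets were left out. Values were taken to log2 without a pseudocount and fitted with limma 3.58.1 in R 4.3.3 (lmFit, contrasts, eBayes), separately for the pooled p0 arrays (16), the p0 L5 and L1 arrays (11) and the adult arrays (12), and p-values were adjusted by Benjamini-Hochberg over 45037 probe sets per comparison. Of these, 34945 have 1 gene symbol, 932 several and 9160 none. All 59 Rab symbols are current in RefSeq. The number of arrays, 2 or 3 per group, limits the precision. Titles of adult arrays carry a TrkC sign, which was not used.

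The members, roles and lists were chosen with earlier results of these data known. Every member called in any planned comparison is named; values per array are given for up to 10 called members in the wild-type sort and in NT3-/-Bax-/- against Bax-/- TrkC GFPon cells, for all Rab3 and Rab27 members, for up to 5 called members elsewhere, and for single genes singled out after their values were seen. Of each regulator list up to 4 genes called on NT3 loss in TrkC GFPon cells are named, and of the effectors also those called in the wild-type sort. Alternatives covered another scale, normalization, filter, prior, choice of probe set, choice of samples, a replicate block, the methods' t-test and leaving out each array. The scripts were tested on simulated data. Plots used matplotlib 3.10.9 in Python 3.11.15. Columns of other series numbered 0.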

Additional observations from a re-analysis of the deposited data

Results flagged for a closer look

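The effect of NT3 loss (NT3-/-Bax-/- minus Bax-/-) in TrkC GFPon cells minus that in TrkC GFPoff cells was past the limma threshold for 9 Rab genes, out of 177 tests of a difference between 2 effects (3 kinds of difference for 59 members). The term was -2.28 for Rab29 (SE 0.42, limma adjusted p = 0.00467), -2.23 for Rab20 (SE 0.39, limma adjusted p = 0.003408), -1.74 for Rab3c (SE 0.44, limma adjusted p = 0.02676), -1.44 for Rab38 (SE 0.35, limma adjusted p = 0.02098) and -1.42 for Rab13 (SE 0.29, limma adjusted p = 0.008088). It was -1.16 for Rab7b (SE 0.27, limma adjusted p = 0.01701) and -1.03 for Rab31 (SE 0.21, limma adjusted p = 0.009195). It was positive for Rab33a (1.17, SE 0.27, limma adjusted p = 0.01717) and Rab42 (1.35, SE 0.38, limma adjusted p = 0.04216).

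The values behind these terms differed in kind. Rab20 had 14.9 and 10.8 in NT3-/-Bax-/- TrkC GFPon cells and 11.7 and 14.0 in Bax-/- TrkC GFPon cells, so that its term came from TrkC GFPoff cells. Rab31 had 2198 and 2640 in NT3-/-Bax-/- TrkC GFPoff cells and 1904 and 2073 in Bax-/- TrkC GFPoff cells, and Rab38 had 342 and 260, against 206 and 253, so that neither fell there. Rab42 had 38.7 and 50.5, against 51.9 and 52.4, in TrkC GFPoff cells. No group held 4 or more arrays, so lone arrays within a group were not searched for.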

How the results depend on the processing

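With only the groups of a comparison in the limma fit, the count was 13 in place of 7 for wild-type TrkC GFPon against TrkC GFPoff cells, 2 in place of 13 for NT3-/-Bax-/- against Bax-/- TrkC GFPon cells, 7 in place of 18 for TrkC GFPoff cells, 1 in place of 9 for the interaction, 0 in place of 1 for L5 against L1 TrkC GFPon cells, and in adults 4 in place of 2 with a wheel, 1 in place of 3 without one and 1 in place of 0 for the wheel in L1. The methods' t-test after Benjamini-Hochberg called 4 members of 17 in L1, 9 of 15 in L5 and 0 in the other comparisons of 2 groups with calls, the interaction having no such test. The adjustment was added here and is not stated by the authors. At the methods' p and fold it called 4 in the wild-type sort, 7 in L1, 4 in L5, 3 and 4 for NT3 loss in TrkC GFPon and TrkC GFPoff cells, 5 for NT3-/-Bax-/- against wild-type, 0 for L5 against L1 TrkC GFPon cells, 0 for adults without a wheel and 1 for the wheel in L1. With the mean of all probe sets of a gene, adults with a wheel had 7 calls, the wheel in L5 had 1, L5 against L1 TrkC GFPon cells had 0, and Rab8b turned to -0.20 in NT3-/-Bax-/- against Bax-/- TrkC GFPoff cells (limma adjusted p = 0.5182). Adults with a wheel had 4 calls with log2(value + 16) and 4 with quantile normalization, and the wheel in L1 had 1 call with a trended robust prior.

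Leaving out each array in turn, the lone array of a group being assumed to vary like the others, gave 2 to 7 calls in the wild-type sort, 10 to 15 and 11 to 19 for NT3 loss in TrkC GFPon and TrkC GFPoff cells, 12 to 20 for NT3-/-Bax-/- against wild-type, 4 to 11 for the interaction, 10 to 16 in L5, 11 to 17 in L1, 0 to 1 for L5 against L1 TrkC GFPon cells, 1 to 6 and 1 to 3 in adults with and without a wheel, 0 to 2 and 0 to 4 for the wheel in L5 and L1, and 0 to 0 for Bax-/- and mlcNT3 against wild-type. For other settings the cause of a change was not tested.

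Replicate numbers are shared between groups. Deviations of same-numbered TrkC GFPon and TrkC GFPoff arrays of 1 genotype correlated at 0.283 in Bax-/-, 0.197 in wild-type, 0.158 in NT3-/-Bax-/- and 0.0077 in mlcNT3 mice, and those in L5 at 0.085 to 0.203, while in L1 and across genotypes the signs were mixed. Same-numbered L1 TrkC GFPoff arrays correlated at 0.063 to 0.230 with L5 TrkC GFPoff arrays and at 0.059 to 0.125 with L5 TrkC GFPon arrays. Those of L1 TrkC GFPon cells lay between -0.025 and 0.018 with L5 arrays. Nothing says what a number marks and not every pair passed 0.1, a limit set by choice, so the main fits did not pair the arrays. Whether same-numbered arrays of the 2 populations came from the same animals is not known. With a replicate block the wild-type sort had 4 calls in place of 7 (Rab13, Rab30 and Rab33a were lost), and no other count moved by over 1.5 times.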
